A study of Homo sapiens with 8 samples.

Results

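MALAT1, NEAT1, SRRM2, SON and FER1L4, a group of 5 genes put together as nuclear-retained RNAs and proteins of nuclear speckles, were followed on 8 expression arrays of 2 human lung cancer cell lines. Every probe set annotated to exactly 1 of these symbols was taken, and each is shown apart. This gave 4 of the 18244 genes measured and 12 of the 49495 probe sets on the array, with 3 for MALAT1, 5 for SRRM2, 3 for SON and 1 for FER1L4. No probe set carried NEAT1 as its symbol, and NEAT1 was not analysed here. The genes were selected on their difference between 3D and 2D culture in these same arrays, so that difference is described below without a test.

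The groups were HCC827, which carries an activating EGFR mutation, and A549, which carries none, each grown in 3D or 2D and each with or without gefitinib, an inhibitor of the EGFR kinase. The 3D cultures were seeded with 100000 cells on a collagen scaffold and kept for 14 days, and the 2D cultures were seeded with 200000 cells in 21 cm2 dishes and kept for 7 days. Gefitinib was used at 1 µM. In 3D it was given from day 11 for 3 days, and a start at day 4, stated in a sentence that also names 3D, was read as the 2D start, with the duration in 2D not stated. Control cultures received no inhibitor. Each combination had 1 array and therefore no replicate. The 3D scaffolds were frozen, cut and lysed with metal beads for 5 min at 50 Hz before a micro column extraction, whereas RNA of 2D cells went through a mini column kit. Culture time, cell number, lysis and extraction thus differ together with culture and cannot be told apart from it.

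Nuclear speckles are bodies in the nucleus that store and modify splicing factors. SON and SRRM2, large proteins rich in serine and arginine, form their core. MALAT1 is an abundant long noncoding RNA that stays in the nucleus and gathers at speckles, and NEAT1 is the long noncoding RNA around which the neighbouring bodies called paraspeckles are built. The main form of MALAT1 ends in a folded triple helix in place of a poly-A tail and carries an A-rich stretch in its own sequence. FER1L4 is a transcribed pseudogene of the ferlin family, studied as a long noncoding RNA in tumours.

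The regions around the transcription starts of MALAT1, SRRM2 and SON are printed as background. A link between these sequences and the culture differences was not tested. They run from 250 bases before to 50 bases after the start, 5′ to 3′ on the plus strand of GRCh38.p14, and come from RefSeq. FER1L4 and NEAT1 had no match in that table. Capitals mark matches to the 6 motifs searched on both strands, none of which contains another. TATAAA is the TATA box, and CCAAT is the box bound by NF-Y. GGGCGG is the GC box. ACGTG is the core of many hypoxia response elements. TGACGTCA is the cyclic AMP response element. GAANNTTC is the unit pair of heat shock elements.
MALAT1, chr11:65498795-65499094: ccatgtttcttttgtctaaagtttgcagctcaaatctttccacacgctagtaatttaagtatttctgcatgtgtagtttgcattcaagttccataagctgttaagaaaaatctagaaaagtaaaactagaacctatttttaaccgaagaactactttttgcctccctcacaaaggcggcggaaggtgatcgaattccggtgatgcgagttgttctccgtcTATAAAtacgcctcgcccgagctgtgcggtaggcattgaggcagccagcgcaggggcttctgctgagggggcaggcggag
SRRM2, chr16:2752388-2752687: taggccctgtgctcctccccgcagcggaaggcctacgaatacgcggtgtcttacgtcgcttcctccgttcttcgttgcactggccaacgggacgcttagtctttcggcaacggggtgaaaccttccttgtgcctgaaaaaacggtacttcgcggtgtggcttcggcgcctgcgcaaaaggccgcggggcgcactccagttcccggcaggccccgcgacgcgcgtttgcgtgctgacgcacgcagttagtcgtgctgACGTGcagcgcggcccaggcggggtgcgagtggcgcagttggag
SON, chr21:33542788-33543087: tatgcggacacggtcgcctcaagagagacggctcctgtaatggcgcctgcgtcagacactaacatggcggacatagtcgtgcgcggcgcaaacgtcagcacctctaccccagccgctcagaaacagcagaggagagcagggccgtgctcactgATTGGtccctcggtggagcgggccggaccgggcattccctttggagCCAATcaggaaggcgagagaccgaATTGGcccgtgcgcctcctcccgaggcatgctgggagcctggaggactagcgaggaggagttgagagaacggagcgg
The MALAT1 window held 1 match to TATAAA, at base 221 counted from its 5′ end, a motif present in 11.5% of the 35116 promoter windows of the table. The SRRM2 window held 1 match to ACGTG, at base 257, a motif present in 21.4% of windows. The SON window held 3 matches to CCAAT, read on either strand, and 34.6% of windows held that motif. No motif was shared by these 3 windows. GC content was 46.0% in the MALAT1 window, 65.0% in the SRRM2 window and 63.3% in the SON window. A further MALAT1 start in the table, chr11:65497488-65497787, held 5 matches to GGGCGG, which 45.0% of windows held. The cyclic AMP element, present in 1.85% of windows, and the heat shock unit, present in 6.77%, were in none of the 4 windows.

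The deposited values are log2 signals after robust multi-array averaging (RMA), so a difference of 1 is a 2-fold difference. Array medians lay between 7.27 and 7.34. The epithelial keratins KRT8, KRT18 and KRT19 were high on all 8 arrays. EPCAM, a further epithelial marker, was 12.37 to 12.88 in HCC827. In A549 it was 9.77 and 9.74 in 2D (gefitinib, then control) but 7.90 and 7.72 in 3D, closer to the array median. CDKN2A averaged 12.89 in HCC827 and 6.70 in A549, and ALDH1A1 averaged 6.53 in HCC827 and 13.88 in A549, which sets the lines apart. Of the fibroblast, endothelial and leukocyte markers listed, COL1A2, COL3A1, DCN, CDH5, PTPRC and CD3E were above the array median on 0 arrays. The exceptions were COL1A1 (2 arrays), LUM (4 arrays, at most 9.93, in the array labelled HCC827 2D control), PECAM1 (3 arrays), VWF (1 array) and CD68 (8 arrays). The labels of the HCC827 2D arrays need care. DUSP6, a phosphatase gene switched on by EGFR signalling, differed between gefitinib and control by -3.32 in HCC827 3D and by 3.64 in HCC827 2D. SPRY4 (-0.74 in 3D, 0.61 in 2D) and ETV5 (-1.79 in 3D, 2.52 in 2D), targets of the same pathway, were also opposed. These arrays are called by their labels throughout. Counts over the 12 probe sets and over all listed genes are also given with the labels exchanged or from A549 alone. Other values that use these arrays, single HCC827 pairs among them, are by the labels unless stated.

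Of the 12 probe sets, 7 were higher in 3D by log2 1 or more in all 4 pairs of line and treatment: 2 of 3 for MALAT1, 4 of 5 for SRRM2, 1 of 1 for FER1L4 and 0 of 3 for SON. Of the 28846 probe sets above the array median on at least 2 arrays, among which were all 12, 1.65% met the same criterion. Because the genes were chosen on this contrast, nothing is read from that count. From the A549 pairs alone, which do not use the doubtful labels, 8 of 12 met it, beside 3.93% of all probe sets. In RNA from whole cultures, more cells with a high level and more RNA per cell cannot be told apart.

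MALAT1 showed the widest gap on probe set 11755605_s_at. Its signal was 13.97 and 13.92 in HCC827 3D (gefitinib, then control) and 13.50 and 14.00 in A549 3D, against 11.10 and 11.22 in HCC827 2D and 10.06 and 10.57 in A549 2D. All 3D arrays were above all 2D arrays, and the lowest of the 8 was A549 2D with gefitinib. The mean 3D minus 2D difference was 3.11 ± 0.38 (SD over 4 pairs), a fold of 8.66, and only 3 probe sets of 28846, this one included, had a mean difference as large. Going down in level, the 4 conditions of 3D came first, led by A549 control, and then in 2D the HCC827 arrays and last the A549 arrays, control above gefitinib in each line. With 1 array for each condition, no neighbours in that order can be said to differ.

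The other MALAT1 probe sets gave smaller gaps in the same direction. Probe set 11745723_a_at read 12.08 and 12.10 in HCC827 3D and 11.53 and 11.82 in A549 3D, against 10.00 and 10.38 in HCC827 2D and 8.92 and 9.09 in A549 2D (gefitinib, then control). Its pair differences ran between 1.71 and 2.73 and averaged 2.28 ± 0.48 (SD, 4 pairs). Again no 2D array reached a 3D array. Probe set 11745724_at was the closest to the threshold among MALAT1, SRRM2 and FER1L4 probe sets that missed the criterion. It read 9.35 and 9.70 in HCC827 3D and 9.69 and 9.61 in A549 3D, against 8.65 and 8.87 in HCC827 2D and 7.72 and 8.16 in A549 2D. The HCC827 pairs differed by 0.70 with gefitinib and 0.83 without, and the A549 pairs by 1.98 and 1.44. The probe sets for MALAT1 thus agree on which culture is higher and differ by over log2 1 in how much. The suffix _s marks a probe set that can match transcripts of more than 1 gene.

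SRRM2, a scaffold protein of speckles that also sits in the splicing machinery, was higher in 3D on 4 of 5 probe sets. On 11758214_s_at the signal was 13.23 and 12.91 in HCC827 3D and 12.49 and 12.51 in A549 3D, against 10.22 and 10.46 in HCC827 2D and 9.73 and 9.63 in A549 2D (gefitinib, then control). The groups did not overlap, and the difference averaged 2.77 ± 0.24 (SD, 4 pairs), a fold of 6.83 that 12 probe sets, this one included, reached. On 11716512_a_at the 4 pairs differed by 2.41 to 2.79, and on 11716511_x_at by 2.13 to 2.68. On 11761450_x_at, the closest to the threshold of those that met the criterion, the 3D arrays read 10.19 to 10.52 and the 2D arrays 8.55 to 8.60, with pair differences of 1.62 to 1.96. The 5th probe set, 11753062_a_at, stayed close to the array median. It read 7.28 to 7.58 on the 3D arrays and 7.24 to 7.59 on the 2D arrays, so the groups overlapped, and the mean difference was 0.04 ± 0.16. The suffix _x marks probe sets prone to binding other transcripts, which applies to 2 of these 5.

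SON, the other core protein of speckles, did not share that gap. Probe set 11754451_a_at read 10.78 and 10.40 in HCC827 3D and 10.45 and 10.43 in A549 3D, against 10.50 and 10.48 in HCC827 2D and 10.28 and 10.26 in A549 2D. The groups overlapped, with a mean difference of 0.14 ± 0.16 (SD, 4 pairs). Probe set 11734744_a_at was higher in each 3D array than in any 2D array, at 8.54 to 9.29 against 8.06 to 8.35, with pair differences of 0.46 to 0.94. Probe set 11724655_at went the other way, at 7.02 to 7.25 in 3D against 7.34 to 7.46 in 2D, with all 3D arrays below their array median. Its mean difference was -0.23 ± 0.15.

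FER1L4 was read by 1 probe set, 11755790_a_at. The signal was 11.57 and 11.48 in HCC827 3D and 9.64 and 10.09 in A549 3D, against 8.92 and 8.83 in HCC827 2D and 6.84 and 6.67 in A549 2D (gefitinib, then control). The pairs differed by 2.65 and 2.64 in HCC827 and by 2.81 and 3.42 in A549, with a mean of 2.88 ± 0.37 (SD, 4 pairs) and a fold of 7.37. Within each line the cultures did not overlap. Both A549 2D values were below the array median, where a log2 difference can be compressed.

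**Figure D1:**
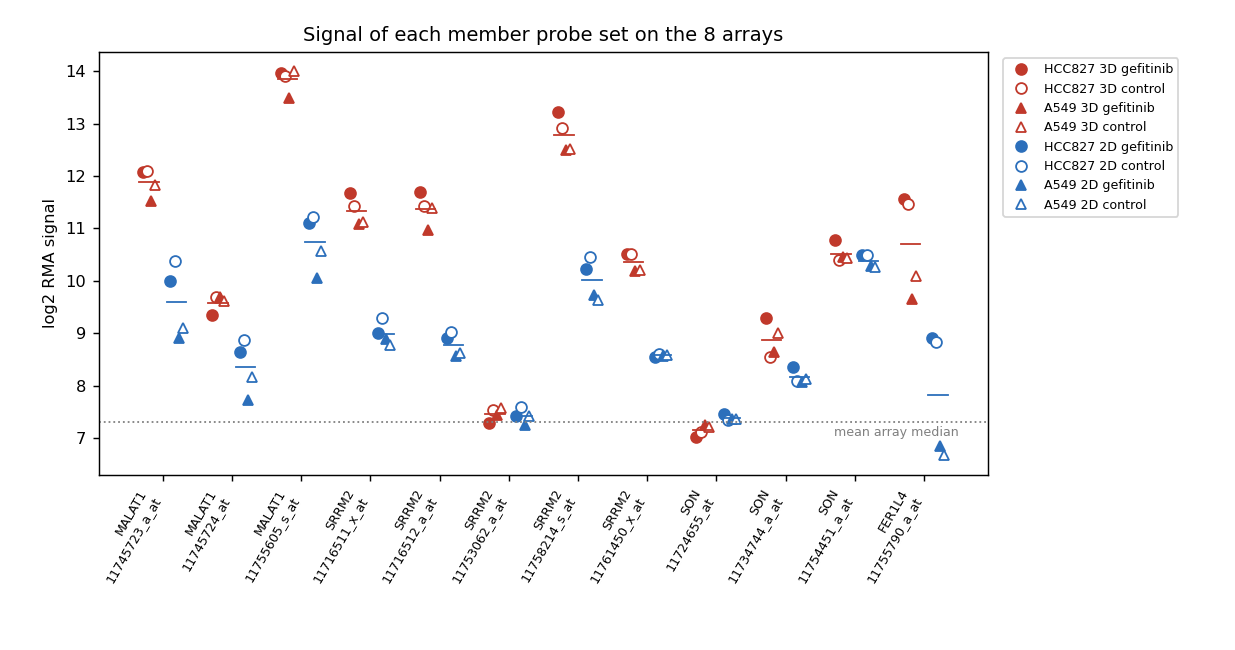
Log2 RMA signal (vertical axis) of the 12 probe sets on the 8 arrays, with 3D in red left of 2D in blue, circles for HCC827, triangles for A549, filled for gefitinib and open for control; short bars are means of 4 arrays and the dotted line is the mean array median. MALAT1, SRRM2 (except 11753062_a_at) and FER1L4 stand higher in 3D, SON hardly so; levels of different probe sets are not comparable.

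RNA integrity moved with culture. The 3′ minus 5′ difference of the actin control probe sets was 2.64 and 2.34 in HCC827 3D and 1.74 and 1.67 in A549 3D (gefitinib, then control), against -0.14 to -0.05 on the 2D arrays. The same difference for GAPDH was 1.57 and 0.97 in HCC827 3D and 0.54 and 0.55 in A549 3D, against -0.04 to 0.01 on the 2D arrays. A larger value means less signal from the 5′ end relative to the 3′ end. For actin and GAPDH it was largest in HCC827 3D with gefitinib. For the ISGF3A control, that array had the lowest value of the 3D arrays, 2.51. By the labels, the HCC827 gefitinib pair had the largest culture difference for each of the 4 SRRM2 probe sets that met the criterion. It was 3.01 for 11758214_s_at, 2.79 for 11716512_a_at, 2.68 for 11716511_x_at and 1.96 for 11761450_x_at. With the HCC827 2D labels exchanged, that pair had the largest difference for none of these 4. The A549 control pair, which does not use those labels, differed by 2.88 for 11758214_s_at and 2.76 for 11716512_a_at. The MALAT1 and FER1L4 probe sets had their largest difference in an A549 pair, at 3.44 for MALAT1 11755605_s_at and 3.42 for FER1L4. The 3′ minus 5′ difference of the ISGF3A control was 2.51 to 2.86 on the 3D arrays and 1.59 to 1.83 on the 2D arrays.

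The control RNAs that are not made by the cells also differed. The 12 probe sets of the poly-A spikes, bacterial transcripts with an added tail that are mixed into the RNA before labelling, averaged 11.16 on the 3D arrays (10.90 to 11.58) and 8.20 on the 2D arrays (7.85 to 8.33). Their difference averaged 2.97. By the labels it was 3.73 and 2.88 in the HCC827 pairs and 2.60 and 2.65 in the A549 pairs (gefitinib, then control). The amount of spike added to each sample is not stated in the labels. The 9 hybridization controls, labelled fragments added before hybridization, differed by 1.26, and the Alu probe set, which reads a repeat found in many human transcripts, by 1.28. Probe sets for 18S ribosomal RNA differed by -1.11. Within the dap spike itself the 3′ minus 5′ difference was 1.09 ± 0.08 in 3D and 1.36 ± 0.09 in 2D (SD over 4 arrays each), lower in 3D and so unlike actin and GAPDH. The part of integrity, of the spikes or of the labelling in the members' differences was not tested.

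Set against the spikes, the mean differences of the 12 probe sets ran from -3.19 to 0.15. With each array scaled to the 12 spike probe sets, a scaling chosen after seeing the data, the median of all probe sets shifted to -2.97 and 0 of 12 probe sets met the criterion, as did 0% of all. The mean 3D minus 2D difference was then 0.15 for MALAT1 11755605_s_at, -0.19 for SRRM2 11758214_s_at, -0.08 for FER1L4 and -2.83 for SON 11754451_a_at. The means near 0 averaged pairs of opposite sign, above 0 in A549 and below 0 in HCC827 (gefitinib, then control). For MALAT1 they were 0.84 and 0.78 in A549 and -0.86 and -0.18 in HCC827. For SRRM2 they were 0.16 and 0.23 against -0.73 and -0.43, and for FER1L4 0.21 and 0.77 against -1.08 and -0.23. How the HCC827 values split between gefitinib and control rests on the doubtful 2D labels. Scaled to the hybridization controls, also after seeing the data, the median of all probe sets shifted to -1.27 and 2 of 12 met it, beside 0.0381% of all, with differences of 1.85 for MALAT1 11755605_s_at, 1.51 for SRRM2 11758214_s_at, 1.62 for FER1L4 and -1.13 for SON 11754451_a_at. Under both scalings these MALAT1, SRRM2 and FER1L4 probe sets stood above the median of all probe sets by about the same amount, since each scaling moves all probe sets of an array together.

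**Figure D2:**
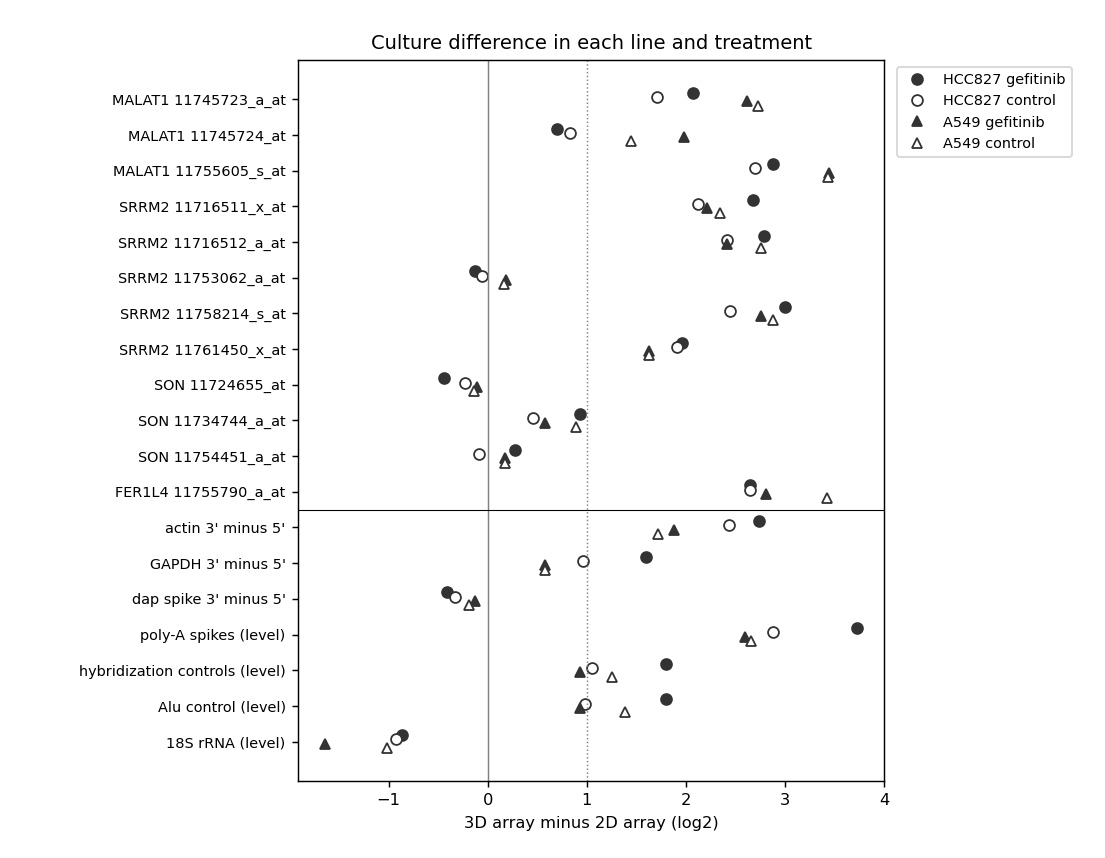
Difference between the 3D and the 2D array (log2, horizontal axis) in each line and treatment for the 12 probe sets (upper block) and control measures (lower block); circles are HCC827, triangles A549, filled gefitinib, open control, and the dotted line marks log2 1. MALAT1 11755605_s_at, SRRM2 11758214_s_at and FER1L4, with the largest mean differences of the 12, and the poly-A spikes lie between 2.45 and 3.73. By the labels, the spikes (3.73) and SRRM2 (3.01) are largest in the HCC827 gefitinib pair. MALAT1 (3.44) and FER1L4 (3.42) are largest in A549 pairs.

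**Figure D3:**
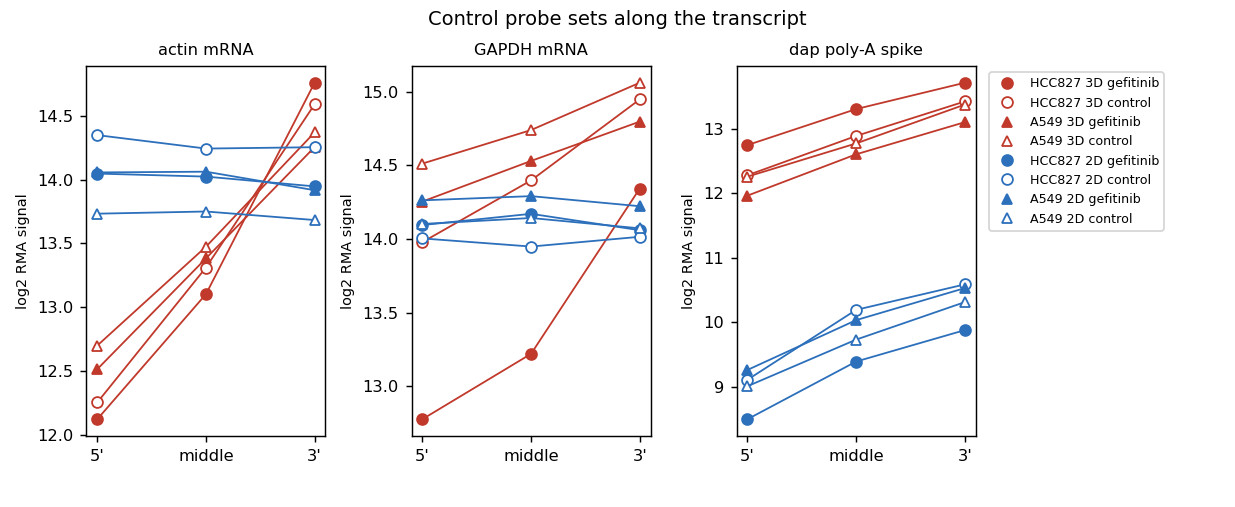
Log2 RMA signal (vertical axis) of the 5′, middle and 3′ control probe sets of actin, GAPDH and the dap poly-A spike, 1 line per array, 3D in red and 2D in blue. Actin and GAPDH climb toward 3′ on the 3D arrays and are flat on the 2D arrays, while the dap spike climbs on all 8 and lies higher in 3D.

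The line was not used to choose the genes and was tested. A linear model over all 8 arrays (limma, Benjamini-Hochberg adjustment over 28846 probe sets) called 4 of 12 probe sets different between HCC827 and A549, all higher in HCC827. Over all probe sets 21.4% were called higher and 25.4% lower in HCC827, beside 4 and 0 of the 12. Without replicates, the spread in this model comes from how far the response to gefitinib changes from 1 culture to the other, and its p-values measure that and not replicate error.

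FER1L4 had the largest line difference of the 12. It averaged 10.20 in HCC827 and 8.31 in A549, a difference of 1.89 ± 0.13 (SE) with a limma adjusted p of 0.00104, and HCC827 was higher in 4 of 4 pairs of culture and treatment. MALAT1 11745723_a_at averaged 11.14 in HCC827 and 10.34 in A549, a difference of 0.80 ± 0.11 (limma adjusted p = 0.00565). For MALAT1 11755605_s_at the difference was 0.52 ± 0.09 (limma adjusted p = 0.0106), and for SRRM2 11758214_s_at it was 0.61 ± 0.13 (limma adjusted p = 0.0186). The line difference of MALAT1 was also computed in each culture; whether it differs between them is the interaction below, which was not called. For 11755605_s_at it was 0.19 in 3D and 0.85 in 2D, and for 11745723_a_at 0.41 in 3D and 1.19 in 2D. No SON probe set was called, with differences of -0.06 to 0.19. The count fell to 1 of 12, FER1L4, when any 1 of the A549 arrays was left out or under either control scaling, with 15.5% to 15.9% of all probe sets called without an A549 array and 23.8% (spikes) and 28.4% (hybridization controls) under the scalings. It was 9 without HCC827 3D control or without the array labelled HCC827 2D gefitinib, and 7 without HCC827 3D gefitinib, without the array labelled HCC827 2D control, or with those 2D labels exchanged. Of all probe sets 68.8% to 70.3% were called without an HCC827 array and 60.8% with the labels exchanged, so the count moved with the whole array.

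Whether the culture difference itself differed between the lines was tested as an interaction. No probe set was called, 0 of 12 for the genes here and 0% of all 28846 in limma, although 4518 had an unadjusted p under 0.05. The 3 MALAT1 probe sets had the lowest unadjusted p-values of the 12. Their 3D minus 2D difference was smaller in HCC827 than in A549 by -0.78 ± 0.22 for 11745723_a_at, -0.95 ± 0.25 for 11745724_at and -0.65 ± 0.18 for 11755605_s_at (SE). The limma adjusted p was 0.234, 0.213 and 0.225 in that order. Leaving out any 1 of the HCC827 arrays brought all 3 past the threshold, with 8456 to 10961 of all probe sets called as well, and leaving out any A549 array brought 0. With the HCC827 2D labels exchanged 0 of 12 were called, beside 7.48% of all probe sets, and the limma adjusted p of the 3 MALAT1 probe sets was 0.0705, 0.0668 and 0.0982 in the same order. For SRRM2, SON and FER1L4 the interaction was between -0.47 and 0.31, and none was called under any of these.

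Gefitinib called none of the 12 probe sets. In HCC827, 0% of all probe sets were called by limma (1101 had an unadjusted p under 0.05), and in A549 likewise 0% (179 with an unadjusted p under 0.05). By the labels, the largest shift in HCC827 was that of SON 11734744_a_at, where gefitinib minus control was 0.75 in 3D and 0.27 in 2D, with a mean of 0.51 ± 0.17 (SE). With the 2D labels exchanged that mean is 0.24, below the 0.28 of SRRM2 11758214_s_at and of 11716511_x_at. In A549 it was that of MALAT1 11755605_s_at, at -0.50 in 3D and -0.51 in 2D, with a mean of -0.51 ± 0.13 (SE). FER1L4 differed by 0.09 in HCC827 3D and by 0.09 in the arrays labelled HCC827 2D, and by -0.45 in A549 3D and 0.17 in A549 2D. With the HCC827 2D labels exchanged, 0 of 12 were called for gefitinib in HCC827, beside 7.36% of all probe sets. Without 1 of the HCC827 arrays, 1 to 2 of 12 were called for gefitinib in HCC827, beside 22.7% to 24.7% of all probe sets, and 0 to 1 in A549, beside 0.0496% to 0.169%. Without 1 of the A549 arrays, 0 of 12 and 0% of all probe sets were called in either line.

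Genes that share the nuclear compartments with these members were compared between cultures from lists drawn up with earlier results of these data known. Each gene is represented by its brightest probe set. Of 11926 genes tested with limma, 30.4% were higher and 17.1% lower in 3D, and the median difference was 0.12. Of speckle proteins and splicing factors, 22 of 54 rose in 3D and 3 fell, with a median difference of 0.24. CCNL2, a cyclin found at speckles, averaged 11.10 in 3D and 9.23 in 2D, a difference of 1.87 ± 0.18 (SE; limma adjusted p = 0.00510). CLK2, a kinase that phosphorylates splicing factors, rose by 1.81 ± 0.10, and ACIN1, a protein of the exon junction complex, by 1.62 ± 0.10 (limma adjusted p = 0.00418 for both). SRSF2, a splicing factor of the serine and arginine rich family, fell by 1.08 ± 0.14, RSRC1 by 1.04 ± 0.13 and PPIG, a nuclear cyclophilin, by 0.51 ± 0.12. All 6 went the same way in 4 of 4 pairs. At log2 1 or more in all 4 pairs stood 7 of the 54, beside 264 of the 11926 genes.

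Paraspeckle proteins moved both ways. Of 19 tested, 8 rose and 4 fell in 3D, with a median difference of 0.28. SMARCA4, the ATPase of a chromatin remodelling complex, rose by 0.92 ± 0.10 (SE), DAZAP1 by 0.91 ± 0.12 and HNRNPM by 0.88 ± 0.23. SFPQ and PSPC1, which with NONO form the core protein pairs of paraspeckles, fell by 0.97 ± 0.21 and 0.72 ± 0.09. NONO, added after its value was seen, was not called, at 0.28 ± 0.08 with a limma adjusted p of 0.0511. NUDT21, a subunit of a cleavage factor of messenger ends, fell by 1.06 ± 0.19. The falls had the same sign in 4 of 4 pairs.

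Genes whose transcripts are known to be held in the nucleus with unspliced introns had the highest median of the lists, 0.98, with 10 of 17 higher and 2 lower in 3D. This list shares members with the speckle list, CCNL2 and CLK2 among them. PNISR, a serine and arginine rich protein, averaged 11.34 in 3D and 9.11 in 2D, a difference of 2.23 ± 0.12 (SE, limma adjusted p = 0.00418). HNRNPDL fell by 1.36 ± 0.12 and the helicase gene DDX5 by 0.70 ± 0.10. The pairs of DDX5 differed by -1.39 and -1.55 in HCC827 (gefitinib, then control), against -0.08 and 0.23 in A549, a difference between lines that was not tested.

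Long noncoding RNAs were thinly covered. Of 18 other nuclear ones only KCNQ1OT1 and CDKN2B-AS1 had a probe set with 1 symbol, and neither passed the filter. Of the hosts of small nucleolar RNAs and cytoplasmic ones, 3 of 9 rose, SNHG12 by 0.69 ± 0.15 (SE), ZFAS1 by 0.66 ± 0.09 and SNHG7 by 0.39 ± 0.11, and 0 fell, with a median difference of 0.03. The pairs of SNHG12 differed by 0.29 and -0.42 in HCC827 and by 1.45 and 1.46 in A549 (gefitinib, then control). Of the protein-coding relatives of FER1L4, 1 of 3 ferlin genes was called: MYOF, a membrane repair protein, fell by 0.48 ± 0.10, with pairs of -0.80 and -0.99 in HCC827 and -0.19 and 0.05 in A549.

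Of the 92 listed genes tested, 47 were called, beside 47.5% of all genes, so nothing is read from that count. From A549 alone 44 (47.8%) rose and 17 (18.5%) fell, beside 41.8% and 22.5% of all genes. With the HCC827 2D labels exchanged 63 were called, beside 63.7% of all genes. Leaving out any single A549 array brought this to 0, with 33 to 36 at an unadjusted p under 0.05 and 0% of all genes called. It was 64 to 76 without any 1 of the HCC827 arrays, beside 70.7% to 74.4% of all genes. Scaled to the spikes, all 92 were called and lower in 3D, and 99.9% of all genes were called. Scaled to the hybridization controls 68 were called, beside 85.9% of all genes, and every list median was below 0 under both, so the directions given for these genes hold relative to the median of all genes.

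**Figure D4:**
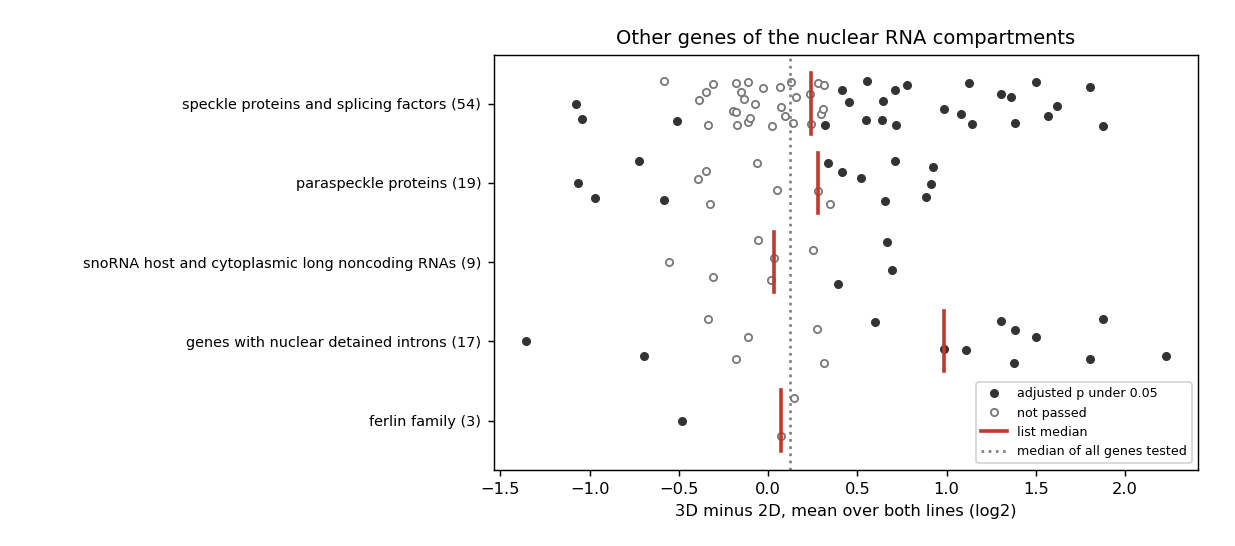
Mean 3D minus 2D difference (log2, horizontal axis) of each tested gene in 5 lists, the number tested in brackets; filled points passed the threshold, red bars are list medians and the dotted line is the median of all genes, 0.12. Genes with detained introns have the highest median, 0.98.

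Across the 8 arrays MALAT1 and SRRM2 followed each other closely. Pearson's r between their brightest probe sets was 0.99, against 0.91 between MALAT1 and FER1L4, 0.93 between SRRM2 and FER1L4, and 0.55 to 0.72 between SON and the others. The members were chosen on the culture contrast, and these points share 2 cultures and the control differences above, so r is a description. Among 11926 genes, those most like MALAT1 were XPO6 (r = 0.995), TRMU, WSB1, PAX3 and DGCR8. Those most like SRRM2 were STK11 (0.998), CHMP1A, NEURL4, PNPLA6 and TRPV1. For FER1L4 they were POFUT2 (0.996), MICALL2, PABPC1L, DNM2 and SENP3. For SON they were INPP4A (0.982), SNX19, ZNF564, FMN1 and CPLANE1. WSB1, at 13.00 in 3D and 10.83 in 2D, had the largest culture difference of these genes, and PAX3, at 7.67 in 3D and 7.41 in 2D, lay close to the array median.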

How the data were processed

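RNA of 8 cultures was measured on 3′ expression arrays, with 100 ng of total RNA amplified and labelled per sample, per the labels' protocols. According to the submitters' processing notes, the deposited log2 signals came from RMA, run in R 3.2.1. The build was not given in the sources used here. Among the 49495 probe sets, 45278 carried 1 gene symbol in the array annotation, updated through RefSeq for 45208, and 1333 with several symbols were left out. No array was dropped or imputed. A linear model with 6 coefficients (mean, line, culture, gefitinib, and line with culture and with gefitinib) was fitted by limma (version 3.58.1, R 4.3.3) with a variance trend, which left 2 degrees of freedom for the residual. All tests were two-sided, with a threshold of 0.05 on the adjusted p. Probe sets above the array median on at least 2 arrays were tested. For lists, 1 probe set per gene was used.

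The members, the lists and the tests were chosen with earlier results of these data known. Named from each list are up to 3 genes that rose most and 3 that fell most among those called, and 5 genes most like each member. Alternatives included exchanged HCC827 2D labels. An A549-only comparison and the control scalings were added after seeing the data. The number of arrays limits the precision.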

Additional observations from a re-analysis of the deposited data

Results flagged for a closer look

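Controls outside the members stood higher in 3D than in 2D. The mean of the 12 poly-A spike probe sets was higher by 2.97, from 10.90 to 11.58 on the 3D arrays against 7.85 to 8.33 on the 2D arrays. The mean of the 9 hybridization controls was higher by 1.26, from 11.63 to 12.45 in 3D against 10.58 to 10.82 in 2D. The Alu probe set was higher by 1.28, from 15.15 to 15.82 in 3D against 14.02 to 14.42 in 2D. They drew attention because neither the spikes nor the hybridization controls are made by the cells. Their part in the members' differences was not tested.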

How the results depend on the processing

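With arrays scaled to the poly-A spikes, the number of the 12 probe sets higher in 3D by log2 1 or more in all pairs was 0 in place of 7, the number differing between lines 1 in place of 4, and listed genes called 92 in place of 47. The culture difference turned to -0.68 (11745723_a_at) and -1.73 (11745724_at) for MALAT1, to -0.63, -0.37, -0.19 and -1.19 for SRRM2 (11716511_x_at, 11716512_a_at, 11758214_s_at and 11761450_x_at) and to -0.084 for FER1L4. Scaled to the hybridization controls, the counts were 2 and 1, and MALAT1 11745724_at turned to -0.027. Exchanging the HCC827 2D labels gave 7 probe sets differing between lines. Leaving out 1 array gave 1 to 9 for the line, 0 to 3 for the interaction, 0 to 1 for gefitinib in A549, 0 to 2 for gefitinib in HCC827 and 0 to 76 listed genes. Such a fit keeps 1 residual degree of freedom, so the spread comes from the other line. Cyclic loess, median centring, other filters, a robust or untrended variance and A549 alone, where each could be run, left these counts within 1.5 times. An additive model gave no interaction or gefitinib test. The fit already holds a term for each of the 4 pairs of line and treatment, and replicate numbers give no further block, since each group has 1 array. Probe sets near the array median, such as SRRM2 11753062_a_at, carry little signal over background.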
